A study of Mus musculus with 15 samples.

Results

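The transcripts of 28 genes that build lipoproteins or clear them from the blood were followed in liver carcinomas of mice with and without p53 in the liver. The genes are the apolipoproteins, the proteins that load lipid onto them, the lipases and transfer proteins that remodel the particles in plasma, and the receptors and lysosomal lipase that take them up. They were found by gene symbol among the non-control probes of the array, and are 28 of 21515 genes and 38 of 55681 probes. The rule that picks them uses symbols and no measured value. RNA of whole carcinoma tissue was hybridised, 1 array per tumor, for 5 hepatocellular carcinomas (HCC) from p53f/f mice, and for 5 HCC and 5 cholangiocarcinomas (labelled ICC, a carcinoma with bile duct features) from p53LKO mice. The p53f/f mice carry floxed p53 alleles and the p53LKO mice lack p53 in the liver. The promoter that drives the deletion is not given in the sources used here. Mice of all 3 groups were on a C57/BL6J background. They received intraperitoneal carbon tetrachloride (CCl4) in olive oil at 0.5 µl per g body weight for 16 weeks. The labels give an injection every 3 days, whereas the study's text gives 2 injections a week. No group of untreated liver was measured. The labels give neither age nor sex of these mice, and the study's text describes the mice of its transcriptome comparison as male. It also describes tumors as arising later in p53f/f mice, so that age at collection and genotype cannot be told apart in these arrays. Mouse 3717 is the source of 2 p53f/f HCC, so that group holds 4 animals, and 4 p53LKO mice (3731, 3733, 3976 and 5283) gave both an HCC and an ICC.

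As background, hepatocytes secrete very low density lipoproteins (VLDL) that are built on 1 molecule of apolipoprotein B, to which microsomal triglyceride transfer protein adds lipid in the endoplasmic reticulum. They also secrete apolipoproteins A-I and A-II, the main proteins of high density lipoproteins (HDL), and the small C apolipoproteins and apolipoprotein E, which set how fast triglyceride-rich particles are hydrolysed by lipoprotein lipase and taken up by cell surface receptors. Bile duct cells are not a known source of these particles.

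A level is the log2 of the background-corrected signal of a probe, minus the 75th percentile of its array, so that a difference of 1 is a change by 2-fold. Levels of different genes are not compared, because probes differ in brightness. Each gene is represented by its brightest probe. The array has several probes for 9 of the genes, and where these differ in direction or in passing the test it is said beside the gene. Lipg, an endothelial lipase, was well above background on 0 p53f/f HCC, 1 p53LKO HCC and 0 ICC and was not tested. The other 27 genes were tested in both comparisons. Of the probes of an array, 55.1% to 70.1% were well above background in p53f/f HCC, 37.0% to 62.1% in p53LKO HCC and 42.5% to 47.0% in ICC. Hybridisation used 2 slides, each holding an upper and a lower row of arrays. The upper rows held every p53f/f HCC and 3 p53LKO HCC, and the lower rows held every ICC and the p53LKO HCC of mice 3976 and 5283. The share of probes well above background followed the row. It was 55.1% to 70.1% on all arrays of the upper rows and 37.0% to 47.0% on all of the lower rows. Among p53LKO HCC alone it was 61.0% to 62.1% in the upper row, and 46.4% and 37.0% in the lower. Slide 1 held 4 p53f/f HCC, 2 p53LKO HCC and 1 ICC, and slide 2 held 1 p53f/f HCC, 3 p53LKO HCC and 4 ICC. The 2 p53LKO HCC of slide 1 were the 2 of the lower row. Within slide 1, p53f/f HCC were thus in the upper row and p53LKO HCC in the lower. Within slide 2, p53LKO HCC were in the upper row and ICC in the lower. Fits within a row, or with the row as a block, set p53LKO HCC of 1 slide against groups mostly on the other. Fits by slide and by row are therefore not independent checks of the layout. The Trp53 probe, which the array files place on chromosome 17, had levels of -1.27 to -0.68 in p53f/f HCC, -3.86 to -2.75 in p53LKO HCC and -4.19 to -2.31 in ICC. RefSeq lists a Trp53 pseudogene on chromosome 17, so the probe may read the pseudogene as well as Trp53, and the files do not settle this or whether it reads the deleted part, so these levels do not check the labels.

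The genes were most spread in ICC. The median standard deviation over the 27 genes was 0.42 in p53f/f HCC, 0.35 in p53LKO HCC and 1.10 in ICC, and 24 of 27 genes had a larger standard deviation in ICC than in p53LKO HCC. A single tumor stood apart. The ICC of mouse 3733 was the lowest of the 5 ICC for 24 of 27 genes, whereas the ICC of mouse 3977 was the highest for 16. The mean level of 8 hepatocyte markers (Alb, Ttr, Cps1, Tat, Fah, Hpd, Tdo2 and Asgr1) moved with this order. It was 1.72 in the ICC of mouse 3733, 3.50 in those of mice 3976 and 5283, 4.80 in that of mouse 3731 and 4.84 in that of mouse 3977, against 4.70 to 5.41 in p53LKO HCC and 5.25 to 5.94 in p53f/f HCC. In tissue RNA, fewer hepatocytes and less RNA per hepatocyte cannot be told apart.

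**Figure D1:**
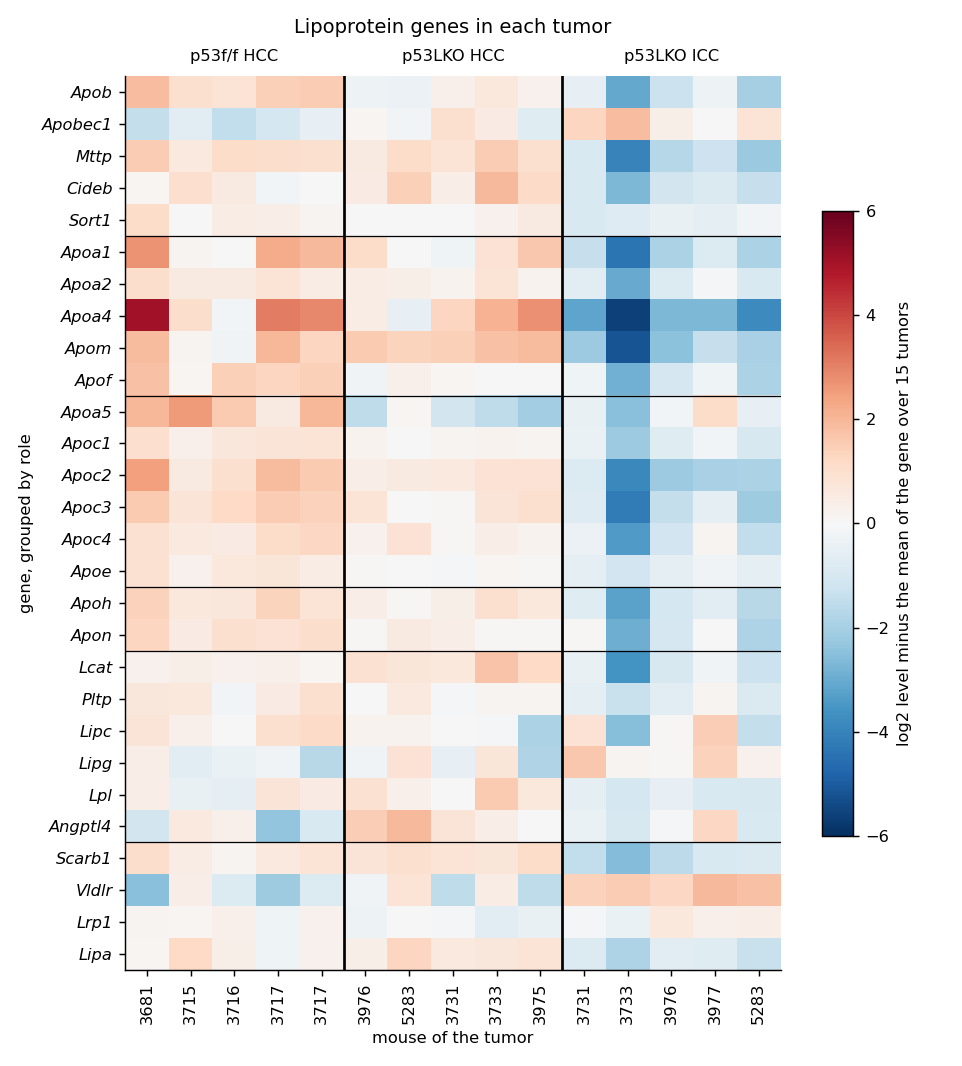
Heat map of the 28 genes (rows, grouped by role) in the 15 tumors (columns, named by mouse). Colour is the log2 level minus the mean of that gene over the 15 tumors. The ICC of mouse 3733 is the darkest blue column, and Vldlr and Apobec1 are among the few genes that are not blue there.

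The first comparison sets HCC of mice that lack p53 in the liver against HCC of floxed controls. Apoa5 fell most, Apob and Apof fell by more than 2-fold, and Apobec1 and Angptl4 rose. The VLDL lipid transfer gene Mttp had overlapping levels in both groups and did not pass. A gene was called where limma gave a p under 0.05 after Benjamini-Hochberg adjustment and the change exceeded 2-fold. By this rule 2 of 27 genes were higher and 3 lower in p53LKO HCC. Over all 16063 genes tested, 5.42% were higher and 8.96% lower in the same way, so the share of lipoprotein genes called in either direction was near the background. The median log2 fold change was -0.42 over the 27 genes and 0.10 over all genes. Groups did not overlap for 1 higher and 4 lower genes, where 8.62% and 9.58% of all genes had higher and lower groups without overlap.

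Other ways to scale the arrays changed these counts. With the spike-in probes as reference, 8 genes were higher and 1 was lower, with a median of 0.83 over all genes, since this scaling raised all genes of p53LKO HCC alike. With the probes that were bright on every array as reference (those well above background in all 15 tumors), 0 were higher and 6 lower, with a median of -0.15. Of all genes called, 37.7% were higher, 91.3% with spike-in scaling, 16.4% with the bright probes as reference and 54.5% with normexp background correction. With the slide as a block 1 gene was higher and 3 lower (831 and 1332 over all genes), within slide 1 0 and 1 (252 and 760), within slide 2 0 and 0 (58 and 95), and within the upper row 1 and 2 (759 and 1444). The fit within slide 2 has a single p53f/f HCC, assumed to vary like the other group, so its count of 0 says little.

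**Figure D2:**
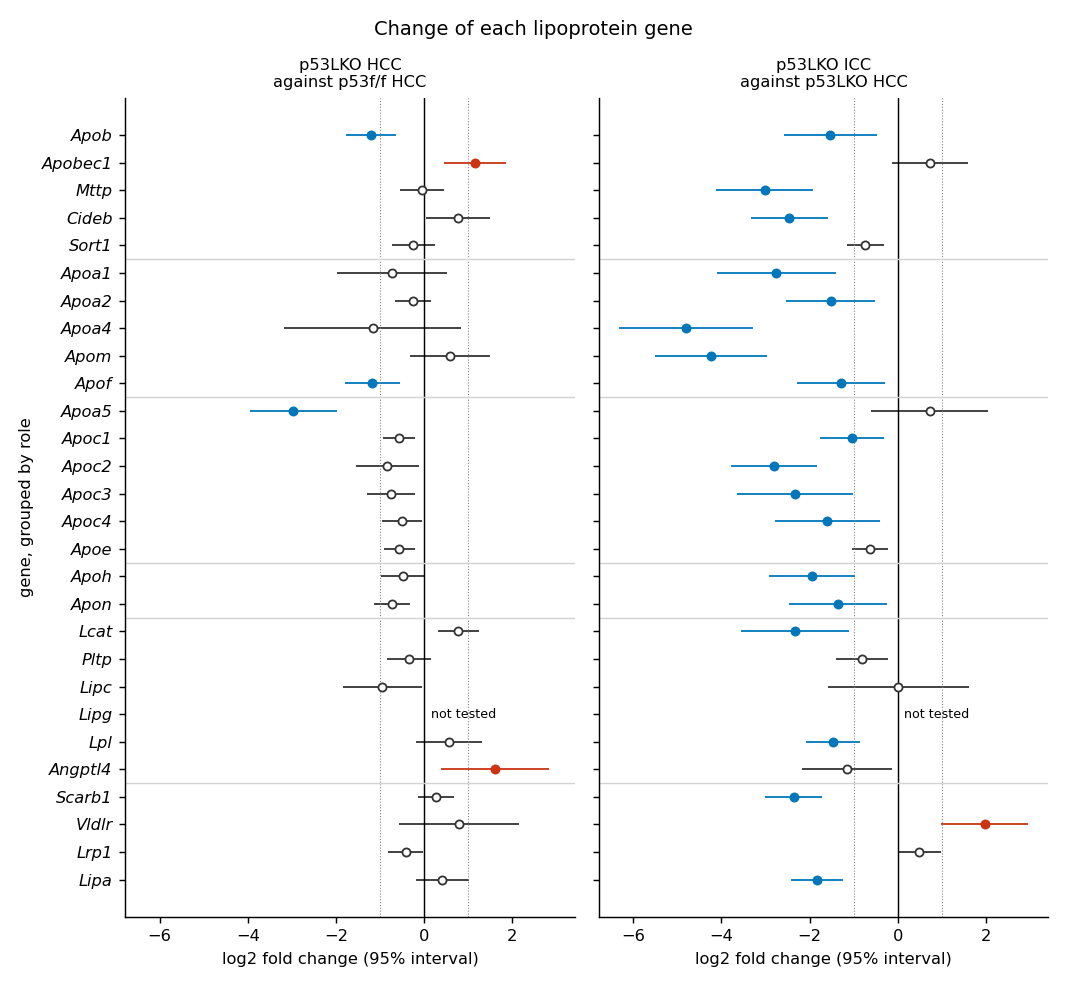
Log2 fold change of each gene with its 95% interval, p53LKO HCC against p53f/f HCC on the left and p53LKO ICC against p53LKO HCC on the right. Filled points passed the test and the 2-fold limit (blue lower, red higher), open points did not. The dotted lines mark a 2-fold change. In the left panel 5 points are filled and in the right panel 19.

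Among the genes of VLDL assembly, Apob encodes the structural protein of the particle. Its level was 8.11, 7.23, 7.08, 7.67 and 7.76 in the p53f/f HCC and 5.96, 5.89, 6.58, 6.89 and 6.51 in the p53LKO HCC. No p53LKO HCC reached the lowest p53f/f HCC. The difference in mean level, the log2 fold change, was -1.20 (standard error, SE, 0.26, adjusted p = 0.00528). Scaled to the spike-in probes it was -0.47, which did not pass, and with the row as a block or within the upper row it was -0.91, under the 2-fold limit. The array has 2 Apob probes, on chromosome 12 of mm9 from 8012697 to 8012756 and from 8023194 to 8023253. The second, dimmer probe gave -0.60 with a standard error of 0.42, and did not pass.

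Apobec1, the enzyme that edits the Apob transcript so that a shorter protein is made, rose. Its level was 1.84, 2.58, 1.79, 2.19 and 2.76 in p53f/f HCC and 3.36, 3.07, 4.20, 3.75 and 2.51 in p53LKO HCC. Of the 5 p53LKO HCC, 4 lay above every p53f/f HCC and that of mouse 3975 lay within their range. Apobec1 had a log2 fold change of 1.15 (SE 0.32, adjusted p = 0.0193), and 0.98 with the slide as a block, where it did not pass (adjusted p = 0.0598). It was 0.94, under the 2-fold limit, when the p53LKO HCC of mouse 3731 was left out. The arrays measure transcript levels, not editing.

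Mttp was 4.24, 3.29, 3.82, 3.8 and 3.68 in p53f/f HCC and 3.27, 3.84, 3.54, 4.27 and 3.67 in p53LKO HCC. The groups overlapped throughout, and the log2 fold change of -0.05 had a 95% interval from -0.55 to 0.46. With spike-in scaling it was 0.69 (adjusted p = 0.0199), below the median of all genes on that scale. Cideb, a lipid droplet protein that aids VLDL lipidation, had a log2 fold change of 0.77 (adjusted p = 0.0952). Sort1, a sorting receptor that binds apolipoprotein B, had -0.25 (adjusted p = 0.416).

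Among the HDL apolipoproteins Apof, which encodes an inhibitor of lipid transfer, passed the test. The p53f/f HCC had 7.35, 5.70, 7.0, 6.88 and 7.0 and the p53LKO HCC 5.35, 5.87, 5.69, 5.60 and 5.54. The p53f/f HCC of mouse 3715 lay among the p53LKO HCC. The mean difference was -1.18 (SE 0.28, adjusted p = 0.00901). It was -0.44 with spike-in scaling and -0.63 relative to the hepatocyte markers, and passed in neither (adjusted p of 0.193 and 0.0885). Apoa1 encodes the main protein of HDL. Its level was 9.17, 6.62, 6.51, 8.70 and 8.40 in p53f/f HCC and 7.59, 6.48, 6.24, 7.36 and 8.07 in p53LKO HCC. The p53f/f HCC split into 3 high and 2 low tumors, those of mice 3715 and 3716, and the groups overlapped. The log2 fold change of -0.73 had a 95% interval from -1.98 to 0.51. The same 2 tumors were the lowest p53f/f HCC for Apoa4, at 4.56 and 3.34 against 6.38 to 8.51, and for Apom, at 6.04 and 5.70 against 7.18 to 7.90. Apoa2 had a log2 fold change of -0.26, Apoa4 of -1.17 and Apom of 0.58, and none of them passed (adjusted p of 0.302 to 0.347).

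Apoa5, which promotes lipolysis by lipoprotein lipase, had the largest change of the 27 genes. Its level was 2.46, 3.04, 2.05, 1.03 and 2.46 in p53f/f HCC and -1.05, 0.59, -0.65, -1.07 and -1.64 in p53LKO HCC. Every p53LKO HCC lay below every p53f/f HCC, and the probe was well above background on all 10 arrays. The log2 fold change was -2.97 (SE 0.45, adjusted p = 0.00067), a fall by 7.83-fold. It was -2.81 with the slide as a block, -2.37 within slide 1, -3.58 within slide 2 and -3.32 with the row as a block. Within slide 1 the groups also differed in row. Within the slides alone the adjusted p was 0.0639, with 2 p53LKO HCC, and 0.0508, with 1 p53f/f HCC. Relative to the hepatocyte markers the log2 fold change was -2.42 (adjusted p = 0.00213), and with spike-in scaling -2.23 (adjusted p = 0.00508). The probe lies on chromosome 9 of mm9 from 46079943 to 46080002.

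The other apolipoproteins of triglyceride-rich particles were shifted by less than 2-fold. Apoe, the ligand for remnant uptake, was 10.2, 9.54, 9.92, 10.05 and 9.76 in p53f/f HCC and 9.40, 9.30, 9.18, 9.41 and 9.36 in p53LKO HCC. Every p53LKO HCC was lower, and the mean difference was -0.57 on the log2 scale (SE 0.16, adjusted p = 0.0208). Apoc1 had the same size and separation, with -0.57 (adjusted p = 0.0204). Apoc3, an inhibitor of lipolysis, had -0.76 (adjusted p = 0.0367), while its dimmer probe had -0.23 and did not pass (adjusted p = 0.683). Apoc2, the cofactor of lipoprotein lipase, had -0.84 and Apoc4 -0.51, and neither passed (adjusted p of 0.0701 and 0.0803). With spike-in scaling the log2 fold change of Apoe was 0.17 and that of Apoc1 0.17, both below the median of 0.83 over all genes on that scale. Of the other apolipoproteins Apon had -0.72 (adjusted p = 0.0131), but 0.0153 with spike-in scaling (adjusted p = 0.962), and Apoh, which encodes a phospholipid-binding plasma protein, -0.49 (adjusted p = 0.118).

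Of the genes that remodel particles in plasma, Angptl4, an inhibitor of lipoprotein lipase, rose. It was 2.49, 4.20, 3.88, 1.24 and 2.70 in p53f/f HCC and 5.06, 5.52, 4.36, 4.02 and 3.61 in p53LKO HCC. The groups overlapped. Angptl4 had a log2 fold change of 1.61 (SE 0.55, adjusted p = 0.0452), and it passed in only 3 of the 10 fits that left out 1 tumor, those without the p53f/f HCC of mice 3715 or 3716 or the p53LKO HCC of mouse 3975, with values of 1.2 to 1.94 over the 10. It was 1.09 with the row as a block (adjusted p = 0.195) and 1.38 when the tumors of mouse 3717 were averaged (adjusted p = 0.0829), and passed in neither. Lcat, which esterifies cholesterol on HDL, was higher in every p53LKO HCC, at 3.57 to 4.68 against 3.09 to 3.29. Its log2 fold change of 0.77 (adjusted p = 0.0174) stayed under the 2-fold limit. Lpl had a log2 fold change of 0.56, Pltp of -0.35 and Lipc, the hepatic lipase, of -0.95 (adjusted p of 0.231, 0.256 and 0.0943).

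No receptor was called. Log2 fold changes were 0.27 for Scarb1, the HDL receptor, 0.78 for Vldlr, -0.42 for Lrp1, a remnant receptor, and 0.41 for Lipa, the lysosomal acid lipase, with adjusted p of 0.0987 to 0.352. The dimmer Scarb1 probe gave -0.03 (adjusted p = 0.946), and the dimmer Lrp1 probe -0.95 (adjusted p = 0.0218), under the 2-fold limit.

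The second comparison sets ICC against HCC of the same genotype. Most of the lipoprotein genes were lower in ICC, and every role had genes called lower. Apoa4 and Apom fell most, followed by Mttp, Apoc2 and Apoa1, all 5 HDL apolipoproteins fell, and Vldlr alone was called higher. Of 27 genes 18 were lower and 1 was higher in ICC. Over all 15402 genes tested, 15.4% were lower and 12.4% higher, and the median log2 fold change was -1.52 for the 27 genes and -0.19 for all genes. All 5 ICC lay below all 5 p53LKO HCC for 17 genes and above them for 1. Over all genes, 20.3% had ICC below all HCC and 10.5% had ICC above all HCC. The p53LKO HCC arrays are shared with the first comparison, so the values of the 2 comparisons are not independent.

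The count of lower genes was 14 with the slide as a block (2360 over all genes), 2 within slide 1, where there was 1 ICC (114), 13 within slide 2 (2306), 10 with the row as a block (2080) and 9 within the lower row (1877). The tumor of the same mouse as a block left 18 lower and 1 higher (2160 and 1604 over all genes). Without the ICC of mouse 3733 the count of lower genes was 15 (2117 over all genes), and the median log2 fold change of the 27 genes was -1.06. Of all genes called, 44.5% were higher, and 68.3% with the bright probes as reference, a scaling that gave 12 lower and 2 higher lipoprotein genes and a median of 0.18 over all genes.

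**Figure D3:**
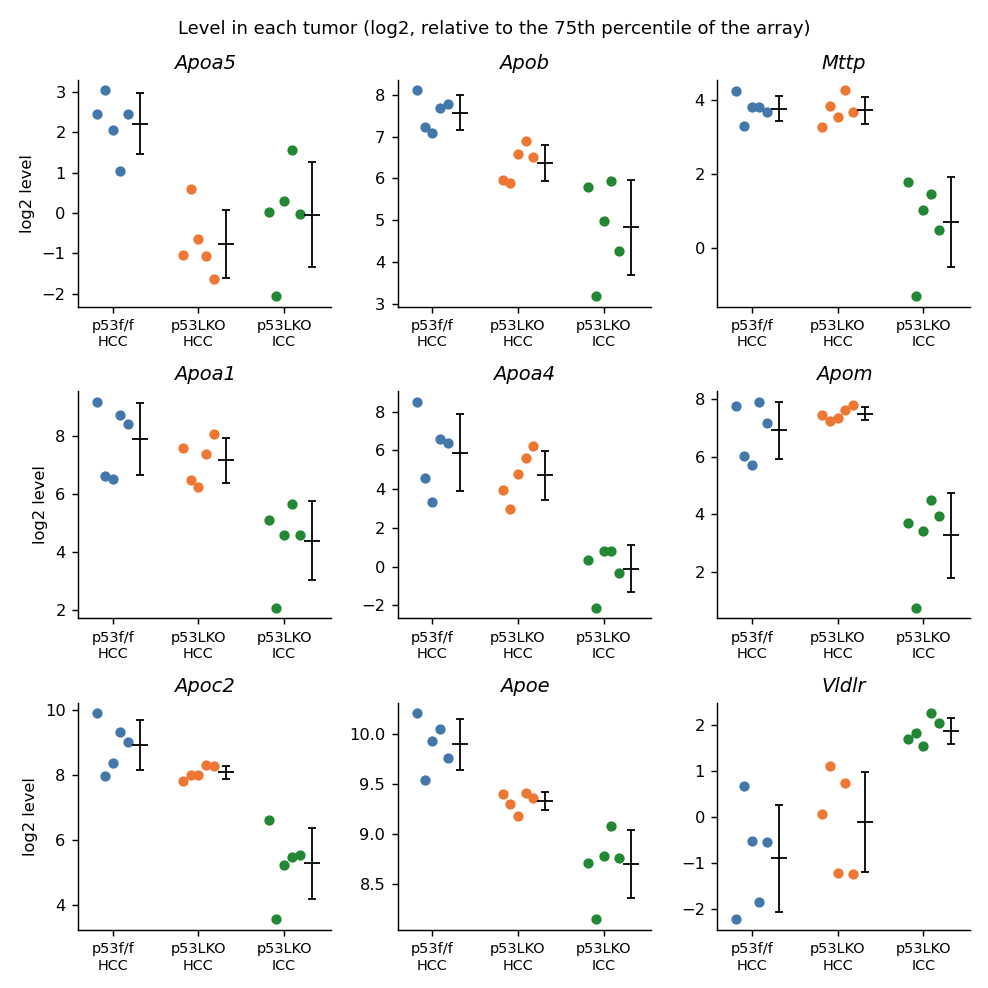
Log2 level of 9 genes in each tumor, relative to the 75th percentile of its array. Points are tumors, and the black bars to their right show the mean and standard deviation of 5 tumors. Apoa5 drops between the HCC groups, Apoa4, Apom, Mttp, Apoc2 and Apoa1 drop in ICC, and Vldlr is highest in ICC.

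In VLDL assembly, Mttp was 1.80, -1.30, 1.03, 1.47 and 0.50 in the ICC of mice 3731, 3733, 3976, 3977 and 5283, against 3.27 to 4.27 in p53LKO HCC. No ICC reached the lowest HCC. This made a log2 fold change of -3.02 (SE 0.50, adjusted p = 0.000983), a fall by 8.10-fold, and it was -2.52 without the ICC of mouse 3733. In the same order Apob was 5.79, 3.19, 4.98, 5.94 and 4.27, against 5.89 to 6.89 in p53LKO HCC. The ICC of mouse 3977 lay within the HCC range. The log2 fold change of Apob was -1.53 (SE 0.48, adjusted p = 0.0236), and -1.40 without the p53LKO HCC of mouse 3733, where it did not pass (adjusted p = 0.0562). The second Apob probe gave -2.15 (adjusted p = 0.0122). Cideb fell by 2.46 on the log2 scale (adjusted p = 0.000882).

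Sort1 and Apobec1 did not follow the other assembly genes. The brightest Sort1 probe had a log2 fold change of -0.73 (adjusted p = 0.00969), under the 2-fold limit, and its other 2 probes had 0.77 and 1.28, so its direction in ICC depends on the probe. Apobec1 was 4.54, 5.09, 3.60, 3.28 and 4.08 in the ICC, the highest value being that of mouse 3733. Its log2 fold change of 0.74 (adjusted p = 0.143) had a 95% interval from -0.12 to 1.60. Over the 3 groups its mean level was 2.23 ± 0.43 in p53f/f HCC, 3.38 ± 0.65 in p53LKO HCC and 4.12 ± 0.72 in ICC (SD, n = 5 each), and only the step between the HCC groups passed the test.

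Of the HDL apolipoproteins, Apoa4 was 0.34, -2.13, 0.82, 0.81 and -0.33 in the ICC and 3.96, 2.99, 4.79, 5.58 and 6.22 in the p53LKO HCC. Even the highest ICC was below the lowest HCC. Apoa4 thus had a log2 fold change of -4.80 (SE 0.69, adjusted p = 0.000449), or 28-fold, and -3.14 within slide 1 and -5.74 within slide 2. Apom, which encodes the HDL carrier of sphingosine-1-phosphate, was 3.69, 0.73, 3.42, 4.51 and 3.94 in ICC and 7.46, 7.25, 7.34, 7.63 and 7.81 in p53LKO HCC. It varied little among p53LKO HCC and was far lower in every ICC. The mean difference was -4.24 (SE 0.58, adjusted p = 0.000351), or 18.9-fold, and -3.66 and -4.44 within slides 1 and 2. Without the ICC of mouse 3733 it was -3.61.

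Apoa1 was 5.09, 2.07, 4.57, 5.64 and 4.58 in ICC, against 6.24 to 8.07 in p53LKO HCC. All ICC were lower, and the log2 fold change was -2.76 (SE 0.61, adjusted p = 0.00471). Apoa2, the other main HDL protein, fell by 1.52 on the log2 scale and Apof fell by 1.29 (adjusted p = 0.0191 and 0.0383). Apoa2 was called in 18 of 26 alternative settings, among them all 10 fits that left out 1 tumor. Apof passed in only 2 of the 10 fits that left out 1 tumor, those without the ICC of mice 3731 or 3977.

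Among apolipoproteins of triglyceride-rich particles, Apoc2 was 6.6, 3.55, 5.24, 5.47 and 5.53 in ICC and 7.83, 7.99, 8.01, 8.29 and 8.29 in p53LKO HCC. The groups were apart, and the mean difference was -2.81 (SE 0.44, adjusted p = 0.000772). Log2 fold changes were -2.34 for Apoc3, -1.60 for Apoc4 and -1.03 for Apoc1 (adjusted p of 0.0096, 0.0336 and 0.0253). Apoc4 overlapped between groups and passed in 4 of the 10 fits that left out 1 tumor. Apoc1 no longer passed without the p53LKO HCC of mouse 3733, where it was -1.01 (adjusted p = 0.051), and without the ICC of the same mouse it was -0.70, under the 2-fold limit. Apoc3 was -1.75 without that ICC. Apoe was 8.71, 8.15, 8.79, 9.08 and 8.76 in ICC, below the 9.18 to 9.41 of p53LKO HCC. Its log2 fold change of -0.63 (adjusted p = 0.0163) was the smallest of the 21 genes past an adjusted p of 0.05 that were lower. Macrophages also make apolipoprotein E, and the mean level of 8 macrophage markers was 1.73 to 2.67 in ICC against 0.89 to 2.50 in p53LKO HCC. Of the 7 markers tested only Lyz2 was called (2.99), and their median log2 fold change was 0.16. The part of macrophages in the level of Apoe was not tested.

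Apoa5, the gene that fell most between the HCC groups, did not fall further. It was 0.03, -2.06, 0.30, 1.56 and -0.03 in ICC, and its log2 fold change of 0.72 against p53LKO HCC had a 95% interval from -0.60 to 2.05. Of the other apolipoproteins Apoh fell by 1.94 and Apon by 1.36 on the log2 scale (adjusted p = 0.00564 and 0.0475), and Apon passed in the same 2 of the 10 fits.

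Of the plasma enzymes, Lcat had a log2 fold change of -2.33 and Lpl of -1.47 (adjusted p = 0.00704 and 0.00193). Pltp, which moves phospholipid between particles, had -0.81 (adjusted p = 0.0278), under the 2-fold limit. Lipc was -0.86, -4.27, -1.63, -0.23 and -3.15 in ICC and well above background in only 3 of them. Its log2 fold change of 0.01 had a 95% interval from -1.59 to 1.62. Angptl4 had -1.15 (adjusted p = 0.0654), with ICC at 2.64 to 4.83 and p53LKO HCC at 3.61 to 5.52.

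The receptors moved in different directions. Vldlr, a receptor for triglyceride-rich particles that normal liver makes at a low level, was 1.69, 1.83, 1.54, 2.25 and 2.04 in ICC and 0.07, 1.11, -1.22, 0.74 and -1.23 in p53LKO HCC. All 5 ICC lay above all HCC, and they differed little among themselves, unlike the HCC. Vldlr rose by a log2 fold change of 1.97 (SE 0.45, adjusted p = 0.00527), or 3.93-fold. It was 1.09 within slide 1, where it did not pass, and 2.48 within slide 2, and 1.28 with the row as a block (adjusted p = 0.0926). The second Vldlr probe was well above background on 0 ICC and 2 p53LKO HCC and was not tested. Scarb1 had a log2 fold change of -2.36 and Lipa of -1.82 (adjusted p = 0.00022 and 0.000513). Lrp1, which many cell types make, had 0.49 (adjusted p = 0.0953).

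Markers of other cell types moved with this comparison. The mean level of 8 bile duct markers was 0.14 to 0.57 in ICC and -3.10 to -1.54 in p53LKO HCC, and that of 8 stellate cell and fibroblast markers 4.10 to 5.0 against 1.83 to 3.83. Of the hepatocyte markers 4 of 8 fell (Alb, Ttr, Fah and Asgr1), with a median log2 fold change of -1.52 over the 8, and all 8 were well above background on all 15 arrays. The 4 adipocyte markers, a source of Lpl in other tissues, were near background, with Adipoq, Plin1, Lep and Cfd well above it on 0 ICC. Mean levels of the other marker lists overlapped between p53LKO HCC and ICC for 7 endothelial markers (0.04 to 1.30 and -0.25 to 1.31), and were lower in ICC for 4 enterocyte markers (-0.85 to 0.44 and -1.28 to -0.52), with overlap, and for 5 pancreatic acinar markers (-3.33 to -2.11 and -3.93 to -3.39), with no overlap. Between the HCC groups, the markers called lower in p53LKO HCC were Tdo2 of the hepatocyte list (-2.11), Stab2 and Tek of the endothelial list (-1.17 and -1.06) and Pnlip of the pancreatic acinar list, which was not well above background in any p53LKO HCC and was at least 1.30-fold lower there (adjusted p = 0.00566). Those called higher were Cd14 of the macrophage list (1.53), Lum of the stellate cell and fibroblast list (1.69) and Vil1 of the enterocyte list (4.85). The p53f/f HCC varied widely for Vil1 (SD 4.13), and only 2 p53LKO HCC lay above all of them (adjusted p = 0.0398). The stellate cell and fibroblast list spanned 0.64 to 2.46 in p53f/f HCC. The part of these cell types in the changes of the lipoprotein genes was not tested.

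When levels were taken relative to the mean of the hepatocyte markers of the same array, a scaling chosen after seeing the data, 3 genes were lower and 4 higher in ICC, and the median log2 fold change of the 27 genes was -0.17 against 1.17 for all genes. The 3 lower genes were Apoa4 with -3.45, Apom with -2.88 and Mttp with -1.66 (adjusted p of 7.98e-06, 0.00026 and 0.0481). The 4 higher genes were Vldlr with 3.33, Apobec1 with 2.09, Apoa5 with 2.08 and Lrp1 with 1.84. Apob was at -0.18 and Apoa2 at -0.17 on this scale, and neither passed. In the comparison of HCC the same scaling gave 6 higher and 1 lower gene, Apoa5, and a median of 0.13 against 0.65 for all genes, of which 83.8% of those called were then higher. In ICC against HCC 96.3% of all genes called were then higher.

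**Figure D4:**
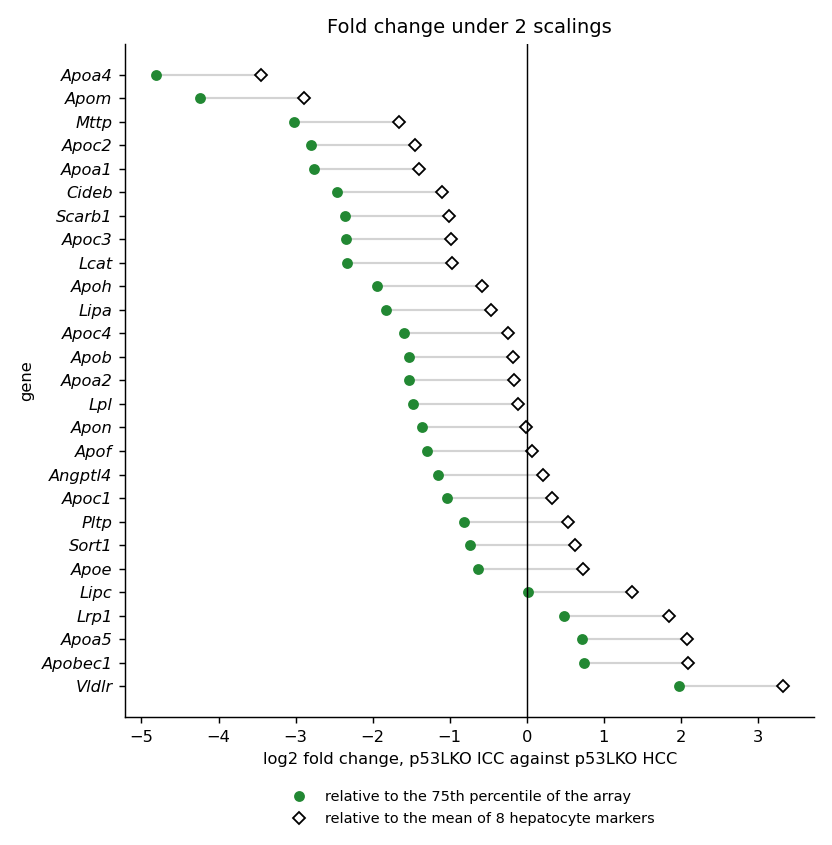
Log2 fold change of 27 genes between p53LKO ICC and p53LKO HCC, with levels relative to the 75th percentile of the array (green circles) or to the mean of 8 hepatocyte markers on the same array (open diamonds). Relative to the hepatocyte markers the genes lie on both sides of 0, with Apoa4 and Apom lowest and Vldlr highest.

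Several members are neighbours in the genome. In the RefSeq annotation of GRCm38.p6, Apoa1, Apoc3, Apoa4 and Apoa5 follow each other on chromosome 9, Apoc2, Apoc4, Apoc1 and Apoe on chromosome 7, and Apon and Apof on chromosome 10. Another gene model overlaps Apoc2 and Apoc4, so those were not compared as neighbours. Neighbours were compared by the difference of their levels within each tumor, over 6 pairs and both comparisons, 12 tests in all. Exact two-sided permutation tests over 5 against 5 tumors have a smallest p of 0.00794.

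On chromosome 9 the neighbours did not change alike. In ICC against p53LKO HCC, Apoa4 changed by -2.47 (SE 0.51) on the log2 scale relative to Apoc3, and Apoa5 by 5.53 (SE 0.94) relative to Apoa4. Both pairs had groups without overlap (exact permutation p = 0.00794, adjusted over the 12 tests 0.0476). In p53LKO HCC against p53f/f HCC, Apoa5 changed by -1.80 (SE 1.35) relative to Apoa4 (exact permutation p = 0.206). Apoc3 relative to Apoa1 changed by -0.03 between the HCC groups and by 0.42 in ICC (adjusted p of 0.976 and 0.206, exact permutation test). On chromosome 7 the differences between neighbours were -0.06 to 0.56, and none passed (adjusted p of 0.206 to 0.976, exact permutation test). On chromosome 10 Apof changed relative to Apon by -0.45 between the HCC groups and by 0.07 in ICC (adjusted p of 0.19 and 0.619, exact permutation test).

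**Figure D5:**
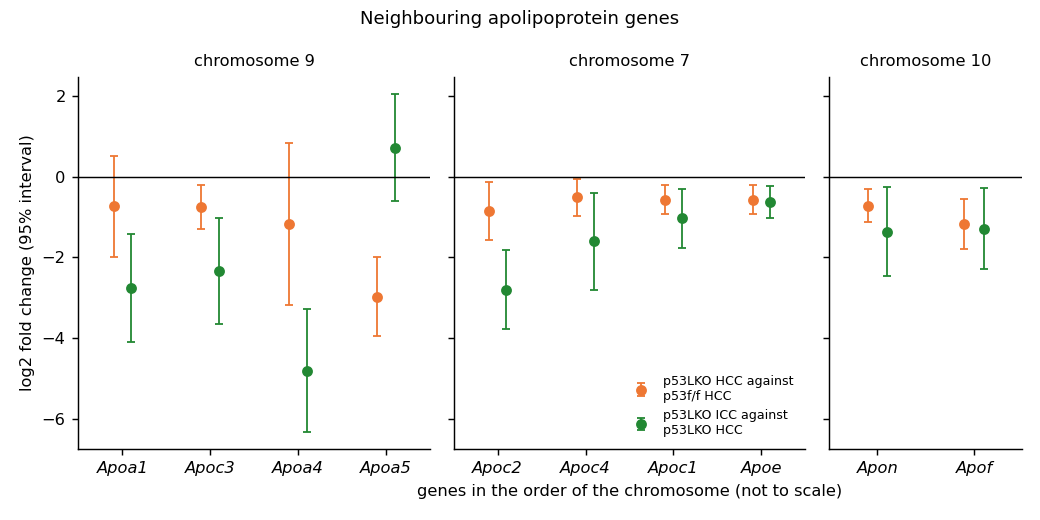
Log2 fold change with its 95% interval for neighbouring apolipoprotein genes, in the order of the chromosome and not to scale, for p53LKO HCC against p53f/f HCC (orange) and p53LKO ICC against p53LKO HCC (green). On chromosome 9 Apoa4 has the lowest green value and Apoa5 the lowest orange value.

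The 250 bases before the start of 3 genes of the chromosome 9 cluster are shown, those of Apoa4 and Apoa5 because these neighbours changed differently in ICC, and that of Apoa1, the first gene of the cluster, beside them. They are RefSeq sequences of GRCm38.p6 on the plus strand, for Apoa1 chr9:46228380-46228629, for Apoa4 chr9:46240594-46240843 and for Apoa5 chr9:46268358-46268607. Capitals mark a match to TATAAA, to AGGTCA or to TGNACTTTG, which resembles sites bound by hepatocyte nuclear factor 4, on either strand.
Apoa1: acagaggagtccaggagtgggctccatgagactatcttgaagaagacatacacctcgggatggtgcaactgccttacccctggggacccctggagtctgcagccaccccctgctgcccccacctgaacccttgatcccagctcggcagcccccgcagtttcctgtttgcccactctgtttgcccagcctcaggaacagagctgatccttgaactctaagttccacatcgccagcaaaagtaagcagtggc
Apoa4: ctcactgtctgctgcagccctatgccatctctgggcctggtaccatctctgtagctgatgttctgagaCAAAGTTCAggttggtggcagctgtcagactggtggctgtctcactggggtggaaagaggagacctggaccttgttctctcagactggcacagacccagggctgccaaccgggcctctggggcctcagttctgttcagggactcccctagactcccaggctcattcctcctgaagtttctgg
Apoa5: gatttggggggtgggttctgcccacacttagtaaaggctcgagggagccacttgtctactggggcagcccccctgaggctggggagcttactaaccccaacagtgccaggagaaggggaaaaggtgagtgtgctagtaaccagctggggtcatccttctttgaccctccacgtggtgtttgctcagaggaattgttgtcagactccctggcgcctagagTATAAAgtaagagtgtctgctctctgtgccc

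In these windows Apoa4 held the TGNACTTTG match 182 bases before its start, on the opposite strand, Apoa5 held TATAAA 31 bases before its start, and Apoa1 held none of the 3. Among 32851 promoter windows of the same length, 1.19% held TGNACTTTG, 12.4% TATAAA and 14% AGGTCA. The RefSeq table held 26 windows for 20 of the 28 genes, of which 2 held TGNACTTTG, those of Apoa4 and Apobec1, 8 held TATAAA and 6 held AGGTCA.

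Partners and regulators of these genes were counted from separate lists. Of 22 tested partners (receptors, secretion factors and lipase cofactors), 2 were higher and 1 was lower in p53LKO HCC, near the 5.42% and 8.96% of all genes. Tm6sf2, which aids VLDL lipidation, had a log2 fold change of 1.25 and Cd36, a fatty acid and lipoprotein receptor, of 1.18, while Mia2, a cargo receptor of the secretory pathway, had -1.24 (adjusted p of 0.00214, 0.0392 and 0.00448). In ICC 7 partners were lower and 0 higher, where 15.4% and 12.4% of all genes were. Cidec had a log2 fold change of -3.48, Tm6sf2 of -2.94 and Cd36 of -2.70. P4hb, the protein disulfide isomerase that pairs with the Mttp protein, had -1.27 and Sar1b, which buds the vesicles that carry lipoproteins, -1.13.

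Of 12 transcription factors and coregulators of apolipoprotein genes, 1 was higher in p53LKO HCC and 0 were lower, against the same shares of all genes. In ICC 8 were lower and 1 was higher, again beside 15.4% and 12.4% of all genes. Among them, log2 fold changes were -2.48 for Ppara, -2.14 for Nr0b2, -2.03 for Hnf4a, -1.64 for Nr1h3, -1.50 for Creb3l3, -1.48 for Nr1h4 and -1.45 for Nr5a2, and 1.02 for Foxa1 (adjusted p of 0.0181). The 8 lower factors lay below every p53LKO HCC in all 5 ICC, whereas Foxa1 overlapped. The median log2 fold change was -1.49 over the 12 factors and -0.69 over the 22 partners.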

How the data were processed

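The authors labelled total RNA with Cy3, hybridised it to Agilent mouse arrays and read them with Agilent Feature Extraction 10.7.3.1, as the submitters' processing notes state. The deposited scanner files give each spot an intensity from which background is subtracted (the processed signal), with probe positions of mm9. The authors' table holds log2 values. They match the log2 signal minus the array's 75th percentile, centred per probe over the 10 HCC arrays (correlation at least 0.999998) or over the 10 p53LKO arrays for ICC, with column medians of -0.33 to 0.35, so that table served only for the comparison of HCC. The name of the normalization and the filter on dim probes are not given in the sources used here.

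Groups and mice were taken from the labels. Spots of a probe were averaged without outlier-flagged spots, and arrays were shifted to their 75th percentile in R 4.3.3. A probe was tested if 3 or more arrays of either group had it well above background, as scored by the scanner software. The fits used limma 3.58.1 on the 10 arrays of each comparison, with Benjamini-Hochberg adjustment over all probes. A call needed an adjusted p under 0.05 with more than a 2-fold change, which are the study's limits. Exact two-sided permutation tests over the 252 regroupings were used for single values. p53LKO ICC and p53f/f HCC were not tested against each other. On simulated data the fit recovered 80.5% (p53LKO HCC against p53f/f HCC, 36081 probes) and 79% (ICC against HCC, 32665 probes) of 200 probes changed by 2 log2 units, with 0 in the wrong direction and 7 and 5 false calls. The simulated noise was independent between probes and arrays. It held no row, slide or mouse effect, so these counts do not cover such effects. Arrays have no read depth, and their number limits the precision. The p-values measure the spread between tumors, some of which share a mouse.

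Whether mice pair HCC and ICC was checked with the correlation of deviations from group means, which was -0.14 to 0.07 for 4 same-mouse pairs and -0.26 to 0.28 for 21 others. The pairing rests on the mouse numbers. Alternatives were normexp correction (offset 50), quantile normalization, 2 other scalings (18863 probes bright on every array, and 7 spike-in probes), 2 other filters, slide, row or mouse as a block, all 15 arrays in 1 model, the methods' t-test, the mean over probes, the authors' table, the mean of the tumors of mouse 3717, and leaving out each tumor. Scaling to hepatocyte markers was added after seeing the data. The members and the lists of partners, regulators and markers were chosen with earlier results of these data known. All 28 genes are named. Values of every tumor are given for called genes with the largest changes and no overlap, for Apob, Apoa1, Apoe and Mttp, and, chosen after their values were seen, for Apobec1, Apof, Angptl4 and Lipc. Partners and regulators are named where called, up to 6 per list by the rule, with further called ones added after their values were seen, and some genes of these lists are not reported here. Figures were drawn with matplotlib 3.10.9 in Python 3.11.15. No sample was left out. No mm9 annotation was used here, so probes were not placed in exons or untranslated regions.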

Additional observations from a re-analysis of the deposited data

Results flagged for a closer look

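In 81 groups of 5 tumors (27 genes in 3 groups), 5 values, from 3 tumors, lay farther from the rest of their group than Dixon's limit of 0.71 allows. Chance gives about 1 in 20 groups such a value. Of these, 3 belong to the ICC of mouse 3733 and are not independent, with a level of 2.84 for Cideb where the other ICC had 4.14 to 4.67, 5.88 for Apoa2 where they had 7.98 to 8.79, and 0.73 for Apom where they had 3.42 to 4.51. This tumor also had the lowest hepatocyte marker mean of all 15. The p53f/f HCC of mouse 3715 had 5.70 for Apof, where the other p53f/f HCC had 6.88 to 7.35. The p53LKO HCC of mouse 3975 had -3.60 for Lipc, where the others had -1.86 to -1.52.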

How the results depend on the processing

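The number of arrays and the slide and row layout limit these results, and causes of the shifts listed here were not tested. In p53LKO HCC against p53f/f HCC, the count of higher genes (2) was 8 with spike-in scaling, 6 relative to hepatocyte markers, 1 without the filter, with the slide or row as a block, within the upper row, with the mean over probes and with the mean of the tumors of mouse 3717, and 0 with quantile normalization, scaling to probes well above background on all arrays, within slide 1, within slide 2 and with the methods' t-test. Leaving out 1 tumor gave 0 to 2 higher (0 without the p53LKO HCC of mouse 3731, 1 without the p53f/f HCC of mouse 3681, either tumor of mouse 3717 or the p53LKO HCC of mice 3976, 5283 or 3733) and 3 to 4 lower genes. The count of lower genes (3) was 6 with scaling to probes well above background, 1 with spike-in scaling, within slide 1 and relative to hepatocyte markers, and 0 within slide 2.

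In ICC against p53LKO HCC, the count of higher genes (1) was 2 with quantile normalization and with scaling to probes well above background, 4 relative to hepatocyte markers, and 0 within slide 1 and with the row as a block. The count of lower genes (18) was 2 within slide 1, 10 with the row as a block, 9 within the lower row, 11 with the methods' t-test, 12 with quantile normalization or scaling to probes well above background, 14 without the filter and 3 relative to hepatocyte markers, and 13 to 20 when 1 tumor was left out. With the mouse as a replicate block it was again 18, with 1 higher. All genes higher and lower numbered 5881 and 562 with spike-in scaling in the first comparison (871 and 1440 as reported) and 4519 and 172 relative to hepatocyte markers in the second (1907 and 2379).

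Some directions turned, also for genes that passed as reported but stayed under the 2-fold limit (Apoc1, Apoe and Apon between the HCC groups, and Sort1, Apoe and Pltp in ICC). In p53LKO HCC against p53f/f HCC with spike-in scaling, positive values were 0.69 for Mttp (adjusted p = 0.0199), 0.49 for Sort1, 0.0025 for Apoa1, 0.48 for Apoa2, 0.17 for Apoc1, 0.23 for Apoc4, 0.17 for Apoe, 0.25 for Apoh, 0.0153 for Apon, 0.39 for Pltp and 0.32 for Lrp1. Relative to hepatocyte markers they were 0.50 for Mttp, 0.30 for Sort1, 0.29 for Apoa2, 0.0413 for Apoc4, 0.0599 for Apoh, 0.20 for Pltp and 0.13 for Lrp1. With quantile normalization Apoa2 was 0.30 and Apoe 0.0211, within slide 2 Mttp was 0.15, Sort1 0.0887 and Vldlr -0.0412, with the row as a block or within the upper row Mttp was 0.0617, and leaving out 1 tumor it was -0.185 to 0.0722. In ICC against p53LKO HCC, values relative to hepatocyte markers were 0.62 for Sort1, 0.0681 for Apof, 0.32 for Apoc1, 0.73 for Apoe, 0.54 for Pltp and 0.21 for Angptl4, of which Apof and Apoc1 were called as reported. Sort1 was 0.44 as the mean over probes. Lipc was -0.16 with quantile normalization, -0.50 with the row as a block and within the lower row, -0.82 with the mouse as a replicate block, and -0.43 to 0.57 leaving out 1 tumor.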
